A study of Mus musculus with 4 samples.

Results

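The genes described here are the Notch receptors Notch1, Notch2, Notch3 and Notch4, the ligands Jag1, Jag2 and Dll1, and the target genes Hes1, Hey1 and Heyl. They were chosen by name, 10 of the 22524 genes in the count files, and all 10 had a row and passed the filter on low counts that left 14265 genes to test. RNA sequencing counts were available for 4 libraries, 2 labelled Ezh2Y646N and 2 labelled NrasQ61K. The libraries came from tdTomato-positive cells sorted by flow cytometry from pre-tumorigenic dermal hyperplasia of mouse skin. Mice of both groups carried oncogenic NrasQ61K under the tyrosinase (Tyr) promoter, a tamoxifen-inducible Cre (CreERT2) under the same promoter, and a tdTomato reporter at the Rosa26 locus (R26R) behind a stop cassette (LSL). The group Ezh2Y646N also carried a mutant allele of the histone methyltransferase Ezh2 behind such a cassette at ColA1. Tamoxifen was given in vivo to label the cells, per the treatment protocol of all 4 libraries, and the age of the mice is not given in the labels. The comparison asks whether genes of the pathway differ in level when the mutant Ezh2 is present beside NrasQ61K.

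Notch receptors sit in the cell membrane and are activated by ligands of the Jagged and Delta-like families on a neighbouring cell. Binding lets an ADAM protease and then gamma-secretase cut the receptor, and the freed intracellular part joins the DNA-binding protein RBPJ and a Mastermind protein in the nucleus, where Hes and Hey genes are switched on. In mouse skin the pathway is known for moving keratinocytes from the basal into the spinous layer, for the layers of the growing hair follicle, and for the upkeep of melanocyte precursors. Ezh2 carries the enzymatic activity of Polycomb repressive complex 2, which in mammals is found mainly at promoters rich in CpG dinucleotides.

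The promoters of the receptors and ligands differ widely in CpG content, and the sequences of Notch1, Notch2 and Jag1 are printed because the differences between groups described below turn on these genes, with Notch4 as the CpG-poor contrast. Each is the 250 bases upstream of the RefSeq transcription start (build GRCm38.p6), printed 5′ to 3′ on the gene's strand, with every CpG in capitals.

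Notch1, chr2:26503823-26504072, minus strand: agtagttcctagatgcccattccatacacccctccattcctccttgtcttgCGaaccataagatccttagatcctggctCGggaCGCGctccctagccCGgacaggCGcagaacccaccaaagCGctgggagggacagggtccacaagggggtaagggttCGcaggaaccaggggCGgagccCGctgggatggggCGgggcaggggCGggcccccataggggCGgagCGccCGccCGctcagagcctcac
Notch2, chr3:98013288-98013537, plus strand: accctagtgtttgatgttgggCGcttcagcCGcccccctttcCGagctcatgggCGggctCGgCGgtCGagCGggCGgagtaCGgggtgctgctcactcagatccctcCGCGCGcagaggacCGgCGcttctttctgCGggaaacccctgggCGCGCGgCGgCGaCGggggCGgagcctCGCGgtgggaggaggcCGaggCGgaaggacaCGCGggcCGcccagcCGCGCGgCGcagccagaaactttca
Jag1, chr2:137116521-137116770, minus strand: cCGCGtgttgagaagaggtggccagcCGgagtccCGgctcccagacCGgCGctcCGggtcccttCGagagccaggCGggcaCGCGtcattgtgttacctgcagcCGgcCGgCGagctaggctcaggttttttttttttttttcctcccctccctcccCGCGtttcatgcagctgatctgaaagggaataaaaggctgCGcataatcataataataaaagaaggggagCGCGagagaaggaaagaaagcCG
Notch4, chr17:34564045-34564294, plus strand: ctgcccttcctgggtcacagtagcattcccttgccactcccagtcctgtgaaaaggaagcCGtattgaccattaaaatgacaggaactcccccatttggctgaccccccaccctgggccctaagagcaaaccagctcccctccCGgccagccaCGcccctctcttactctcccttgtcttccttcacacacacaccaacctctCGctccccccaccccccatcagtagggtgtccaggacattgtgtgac

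RefSeq windows were matched for 7 of the 10 genes, all but Hes1, Hey1 and Heyl. The Notch1 window held 16 CpGs, that of Jag1 20 and that of Notch2 34, while the Notch4 window held 4. Over all 32851 windows of this length the median was 6 CpGs. The densest of the members was Jag2, with 54 CpGs and a GC content of 87.2%, and 99.98% of windows had fewer CpGs. Dll1 had 2 windows, with 21 and 13 CpGs, and Notch3 had 17. Of the 8 windows, 7 were above the median. The core letters of the RBPJ motif, TGGGAA, searched on both strands, were found in 0 of the 8 windows and in 21.6% of all windows. The palindromic E-box CACGTG, whose last letters can overlap the start of the first motif, was also found in 0 of the 8 and in 6.02% of all. An absence says only that these letters are not within 250 bases of the start used here.

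With all 4 libraries, 0 of the 10 Notch genes passed the threshold, an adjusted p under 0.05 in edgeR's quasi-likelihood test over all tested genes, where 1.77% of all tested genes did. Of the 10, 8 had a log2 fold change (Ezh2Y646N over NrasQ61K) below 0 and 2 above, beside 54% below 0 among all tested genes. The median was -0.62 over the 10 genes and -0.04 over all tested genes. An unadjusted p under 0.05 was found for 3 genes, Notch1, Jag1 and Heyl, all with lower levels in the Ezh2Y646N libraries, beside 7.02% of all tested genes that were lower at that p. The groups did not overlap for 7 genes, 6 lower and 1 higher, where 23.1% of all tested genes were apart and lower and 21.1% apart and higher. Limma voom called 0 of the 10, where it called 1.48% of all tested genes. DESeq2 called Heyl and Jag1 lower, beside 2.72% of the genes with an adjusted p in DESeq2 that it called lower. Levels are CPM (read counts scaled to a fixed library total) on library sizes adjusted by the trimmed mean of M-values, and errors of group means are SDs with n = 2. Nothing in the labels says whether the libraries of a group came from separate animals, so the p-values rest on the spread between libraries alone, and this may be technical.

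**Figure D1:**
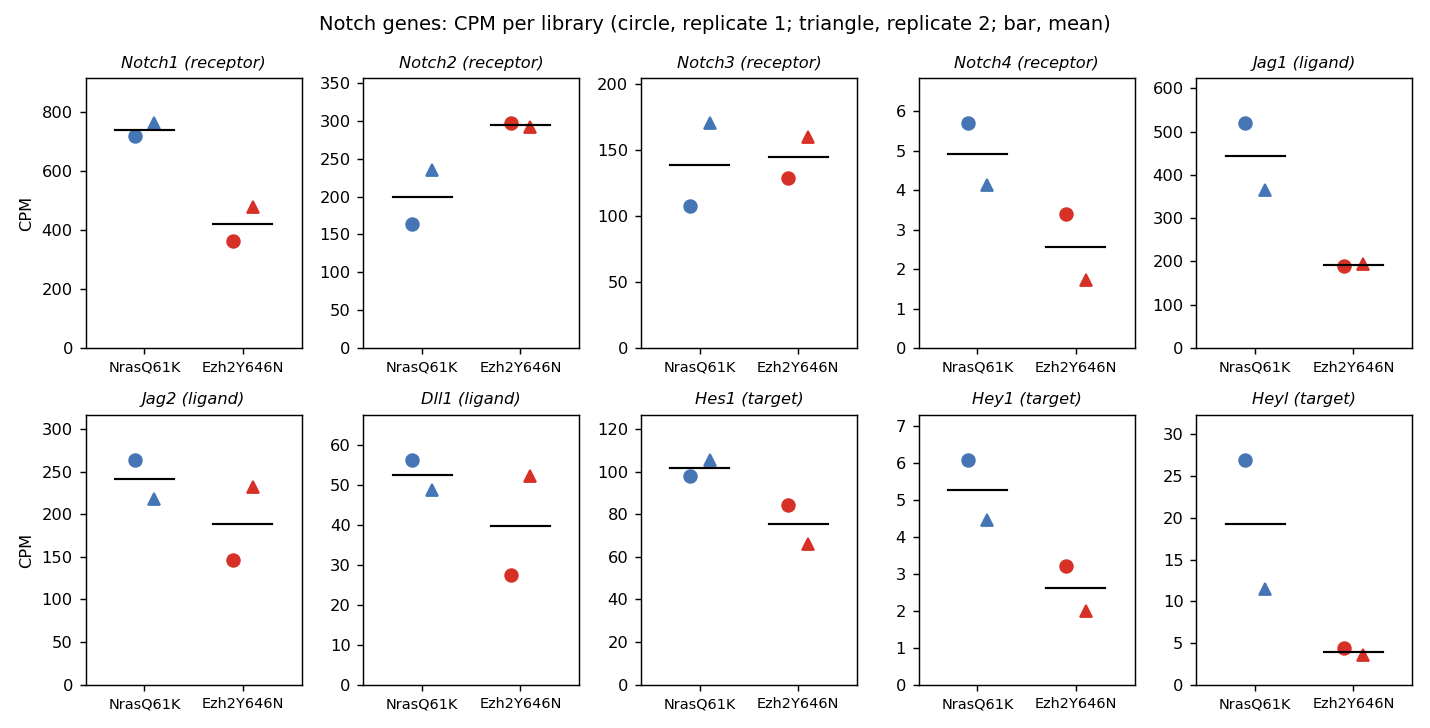
Level of each Notch gene (y axis, CPM from 0) in the 2 libraries of each group, with circles for replicate 1, triangles for replicate 2 and a bar at the group mean. Notch1, Notch4, Jag1, Hes1, Hey1 and Heyl lie lower in both Ezh2Y646N libraries than in either NrasQ61K library, Notch2 lies higher, and Notch3, Jag2 and Dll1 overlap.

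Among the receptors, Notch1 and Notch2 differed in opposite directions between the groups. Notch1 (ENSMUSG00000026923, GRCm38 chromosome 2, 26457903 to 26516663), the main receptor of the epidermis, was at 365 and 479 CPM in the Ezh2Y646N libraries and at 719 and 762 CPM in the NrasQ61K libraries. Both Ezh2Y646N libraries were below both of the others. Group means were 422 ± 80.6 and 740 ± 31.1 CPM (SD, n = 2 each), and the log2 fold change was -0.81 with a standard error (SE) of 0.26. EdgeR's adjusted p was 0.187. Notch2 (ENSMUSG00000027878, chromosome 3, 98013527 to 98150361), a receptor that acts beside Notch1 in melanocyte precursors of the mouse, was at 297 and 292 CPM against 163 and 234 CPM. It was the one member higher in both Ezh2Y646N libraries. Its log2 fold change was 0.56 (SE 0.25, edgeR's adjusted p = 0.371). Only without NrasQ61K replicate 2 did Notch2 pass, at a log2 fold change of 0.89 and an adjusted p of 0.0479, in a fit that called 4.98% of all tested genes higher.

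Notch3 (ENSMUSG00000038146, chromosome 17, 32120820 to 32166852), known as the receptor of vascular mural cells, was at 129 and 160 CPM in the Ezh2Y646N libraries and at 107 and 170 CPM in the NrasQ61K libraries. The NrasQ61K values lay on either side of both others. The log2 fold change was 0.06 (SE 0.28, edgeR's adjusted p = 0.958), and it turned to -0.11 without Ezh2Y646N replicate 2 and -0.24 without NrasQ61K replicate 1. Notch4 (ENSMUSG00000015468, chromosome 17, 34564268 to 34588503), an endothelial receptor, was at a low level, 3.39 and 1.73 CPM against 5.69 and 4.12 CPM. The groups were apart, but the log2 fold change of -0.93 had an SE of 0.53 (edgeR's adjusted p = 0.516). Antisense genes with no row in the files overlap exons of Notch1, Notch3 and Dll1, and since the strand setting of the counting is not given in the sources used here, some of their reads may be counted in these 3 genes. A same-strand gene with no row overlaps Notch2 in the same way, over 541 bases.

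Because CPM does not allow for gene length, levels were compared between genes only as CPM per kilobase of merged exons. On that scale Notch1 was 63.4% and 55.3% of the summed level of the 4 receptors in the NrasQ61K libraries and 36.9% and 41.7% in the Ezh2Y646N libraries. The share of Notch2 was 19.0% and 22.5% against 39.6% and 33.5%. That of Notch3 was 16.7% and 21.7% against 22.9% and 24.5%, and Notch4 stayed under 1% in every library. The ratio of Notch2 to Notch1 per kilobase within a library, a measure chosen after the values of both genes were seen, was 1.07 and 0.804 in the Ezh2Y646N libraries and 0.30 and 0.406 in the NrasQ61K libraries. Both Ezh2Y646N values were above both NrasQ61K values. The size of these shares and ratios depends on the length used. With the longest annotated transcript as the length, Notch2 was below Notch1 in both Ezh2Y646N libraries. Notch1 was then at 38.5 and 50.5 per kilobase there, and Notch2 at 28.2 and 27.8. The difference in the ratio between groups was 1.41 on the log2 scale with either length. A 2-sided exact permutation test gave p = 0.333, the smallest that 2 libraries against 2 allow.

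**Figure D2:**
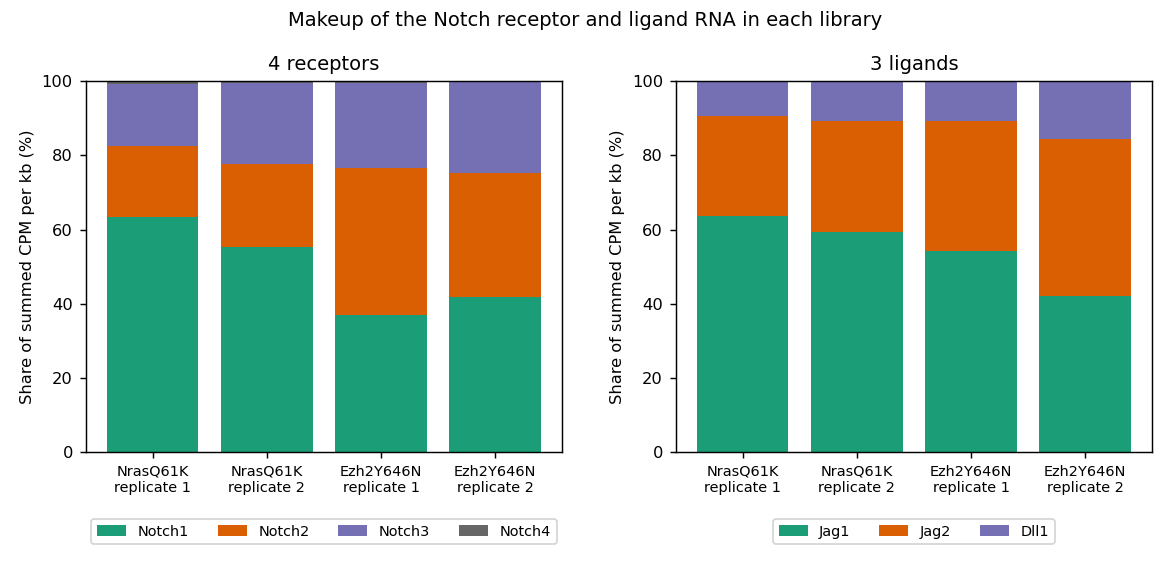
Share of each gene (y axis, % of the summed CPM per kilobase of merged exons) among the 4 receptors (left) and the 3 ligands (right), with 1 stacked bar per library. Notch1 takes 55.3% and 63.4% of the receptor level in the NrasQ61K libraries and 36.9% and 41.7% in the Ezh2Y646N libraries.

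Of the ligands, Jag1 differed most between the groups. Jag1 (ENSMUSG00000027276, chromosome 2, 137081456 to 137116644), the Jagged ligand of the hair follicle and the suprabasal epidermis, was at 189 and 194 CPM in the Ezh2Y646N libraries and at 519 and 366 CPM in the NrasQ61K libraries. The lower of the NrasQ61K values was well above both others, and the spread was wider in the NrasQ61K group. Group means were 192 ± 3.67 and 443 ± 108 CPM (SD, n = 2 each), and the log2 fold change was -1.21 (SE 0.26). EdgeR's adjusted p was 0.0678. Jag1 passed in DESeq2 (adjusted p = 0.000827), in edgeR with low counts left unfiltered (0.000796) and without NrasQ61K replicate 2 (0.00315), and its adjusted p over the 12 alternatives ran from 0.000796 to 0.356. The direction was the same in all 12. In the fit without filter, 3.29% of all tested genes were called lower, and without NrasQ61K replicate 2 this share was 2.68%, both above the 0.673% of the fit with all libraries.

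Jag2 (ENSMUSG00000002799, chromosome 12, 112907819 to 112929776), a second Jagged ligand of stratified epithelia, was at 146 and 232 CPM against 263 and 218 CPM. Dll1 (ENSMUSG00000014773, chromosome 17, 15367354 to 15376872), a Delta-like ligand known from basal cells of human epidermis, was at 27.5 and 52.1 CPM against 56.2 and 48.6 CPM. Both overlapped between groups, with the low value of each in Ezh2Y646N replicate 1. The log2 fold changes were -0.35 (SE 0.28, edgeR's adjusted p = 0.677) for Jag2 and -0.40 (SE 0.32, edgeR's adjusted p = 0.686) for Dll1. Without Ezh2Y646N replicate 1 they were -0.05 for Jag2 and -0.01 for Dll1, and without Ezh2Y646N replicate 2 they were -0.73 and -0.94. Per kilobase, the 3 ligands summed to 59.9 and 79.0 in the Ezh2Y646N libraries and to 140.2 and 106 in the NrasQ61K libraries. Jag1 made up 54.2% and 42.2% of that sum against 63.5% and 59.5%.

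All 3 target genes were lower in both Ezh2Y646N libraries than in either NrasQ61K library, beside 23.1% of all tested genes. None of the 3 passed with all libraries in edgeR. Hes1 (ENSMUSG00000022528, chromosome 16, 30064384 to 30067796), a transcriptional repressor and the target most widely used as a readout of the pathway, was at 84.2 and 66.2 CPM against 98.1 and 105 CPM. Group means were 75.2 ± 12.7 and 102 ± 5.15 CPM (SD, n = 2 each), and the log2 fold change was -0.44 (SE 0.23, edgeR's adjusted p = 0.467). Hey1 (ENSMUSG00000040289, chromosome 3, 8663359 to 8667256), a related repressor known from blood vessels, was at 3.22 and 2.0 CPM against 6.07 and 4.46 CPM. Its log2 fold change of -1.0 had an SE of 0.49 (edgeR's adjusted p = 0.429). As few as 29 reads stood behind a Hey1 value, and 25 behind the lowest Notch4 value.

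Heyl (ENSMUSG00000032744, chromosome 4, 123233556 to 123249875), another repressor of this family, known from vascular smooth muscle, had the largest fold change of the 10 genes. It was at 4.37 and 3.52 CPM in the Ezh2Y646N libraries and at 26.9 and 11.5 CPM in the NrasQ61K libraries. The groups were far apart, and the NrasQ61K libraries differed from each other more than the others did. Group means were 3.95 ± 0.598 and 19.2 ± 10.9 CPM (SD, n = 2 each), and the log2 fold change was -2.28 (SE 0.46). EdgeR's adjusted p was 0.0586. Heyl passed in DESeq2 (adjusted p = 0.000233), in edgeR with low counts left unfiltered (1.93e-07) and without NrasQ61K replicate 2 (0.00133). Over the 12 alternatives its adjusted p ran from 1.93e-07 to 0.162 and its log2 fold change from -2.72 to -1.54, all in the same direction. Relative to Hes1, Heyl was 0.0207 and 0.0212 per kilobase in the Ezh2Y646N libraries and 0.109 and 0.0435 in the NrasQ61K libraries.

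**Figure D3:**
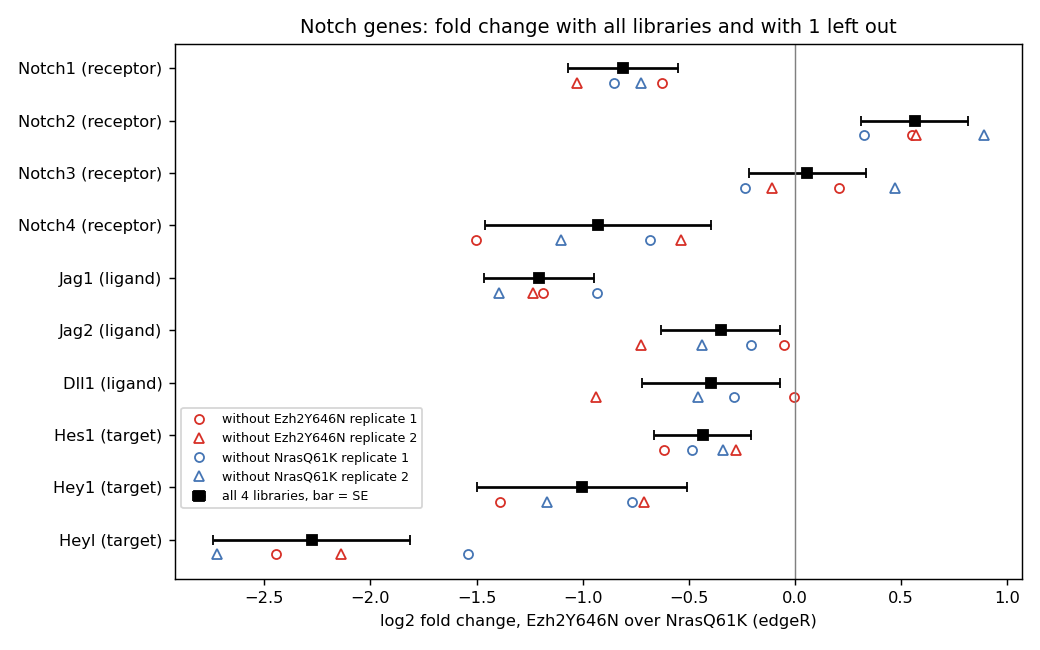
Log2 fold change of each Notch gene (x axis, Ezh2Y646N over NrasQ61K; black squares, all 4 libraries, with bars of 1 SE) and the value with each library left out (open symbols below). Of the 10 genes, 9 stay on their side of 0 whichever library is left out, Dll1 reaching -0.01, and Notch3 lies on both sides.

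The order of the members by mean level per kilobase over the 4 libraries was Jag1 (54.4 ± 27.1), Hes1 (43.4 ± 8.46), Notch1 (40.8 ± 13.4), Jag2 (30.9 ± 7.13), Notch2 (22.9 ± 5.77), Notch3 (17.5 ± 3.55), Dll1 (10.9 ± 3.03), Heyl (2.26 ± 2.12), Hey1 (1.21 ± 0.532) and Notch4 (0.463 ± 0.204), with SDs over n = 4 libraries of both groups. The first 3 could not be put in order within their spread, since Jag1 was above Hes1 in 3 of the 4 libraries and Hes1 above Notch1 in 1. With the longest annotated transcript as the length they were Notch1, Hes1 and Jag1, and the places of the other 7 were kept. The order of the group means also differed. In the Ezh2Y646N libraries the mean of Hes1 (36.9) was above that of Jag1 (32.9) and Notch1 (29.7). Only replicate 1 of this group had that order. Replicate 2 had the reverse, with Notch1 at 33.7, Jag1 at 33.4 and Hes1 at 32.5. The means of Notch2 and Jag2 (27.3 and 27.1) were close, as were those of Hey1 and Heyl (0.80 and 0.772). In both pairs the first gene was the higher in replicate 1 and the lower in replicate 2. In the NrasQ61K libraries Jag1 (75.9) was followed by Notch1 (52.0) and Hes1 (49.9), with Jag2 (34.6) above Notch2 (18.5) and Heyl (3.76) above Hey1 (1.61). Notch1 was above Jag2, Notch2 above Notch3, Dll1 above Heyl and Hey1 above Notch4 in all 4 libraries. Hes1 was the main target RNA in every library, at 87.1% to 96.1% of the summed level per kilobase of the 3 targets.

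Across the 4 libraries some members followed each other closely. The likeness of 2 genes was taken as the mean absolute difference of their log2(CPM + 0.5), each centred on its own mean. Of the 45 pairs, Notch4 and Hey1 were closest, at 0.07, followed by Jag2 and Dll1 at 0.08 and by Notch1 and Dll1 at 0.22. The most distant pairs were Notch2 and Heyl at 1.31, Notch3 and Heyl at 1.06 and Notch2 and Jag1 at 0.88, and these were also the 3 most distant with pseudocounts of 0.1 and 2, under each of which 2 of the 3 closest pairs were the same. All values are descriptions over 4 libraries that share their depth and their mix of cells.

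The rest of the pathway was described with a list of 62 other genes, chosen by role, of which 56 were tested. In edgeR 0 of the 56 passed, beside 1.77% of all tested genes. DESeq2 and limma voom also called 0 of these genes, where they called 6.35% and 1.48% of all genes with an adjusted p. An unadjusted p under 0.05 was found for 5, all lower, beside 7.02% of all tested genes that were lower at that p. The median log2 fold change was -0.22, beside -0.04 over all tested genes, with 13 genes above 0 and 43 below, where 54% of all tested genes were below. The groups did not overlap for 26 of the 56, with 5 higher and 21 lower, beside 21.1% and 23.1% of all tested genes.

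Genes that cut and prepare the receptor showed no common direction. Of 9 processing genes 4 were above 0 and 5 below, with a median log2 fold change of -0.0022. Furin, a convertase that cuts the receptor on its way to the cell surface, was at 134 and 158 CPM against 160.4 and 229.5 CPM, its log2 fold change being -0.42 (SE 0.25, edgeR's adjusted p = 0.55). Adam17, a protease that can shed the receptor's outer part, was at 0.43 on the log2 fold change scale (SE 0.22; edgeR's adjusted p = 0.451). Furin was at -0.095 without NrasQ61K replicate 2. The 6 enzymes that add sugars to the receptor had a median of -0.27. Eogt and Poglut1, a pair of glycosyltransferases of the receptor's EGF repeats, were at -0.47 and -0.32 without passing, and Eogt was at -0.13 without NrasQ61K replicate 1.

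Of the other ligands, 5 of 8 were tested, with a median log2 fold change of -0.52. Dll4, the Delta-like ligand of endothelium, was at 2.82 and 1.38 CPM against 7.14 and 6.62 CPM. Both Ezh2Y646N libraries were lower, the log2 fold change being -1.70 (SE 0.50; edgeR's adjusted p = 0.157). Mfap5, a microfibril protein that can bind Notch1, had one of -1.18 (SE 0.76), which was -2.89 without Ezh2Y646N replicate 1 and -0.44 without Ezh2Y646N replicate 2. Dll3, Dlk1 and Dner were not tested, with at most 9 reads in any library.

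In the nucleus, 16 of 18 genes of the RBPJ complex, its coactivators and corepressors were below 0, beside 54% of all tested genes, with a median of -0.15 and values from -0.94 to 0.14. Rbpj itself was at 37.4 and 28.2 CPM against 37.9 and 36.5 CPM (log2 fold change -0.18, SE 0.25, edgeR's adjusted p = 0.842). Ctbp2, a corepressor, was at 28.8 and 28.0 CPM against 64.3 and 45.0 CPM, its log2 fold change being -0.94 (SE 0.26, edgeR's adjusted p = 0.133). Maml2, a Mastermind coactivator, was at 34.0 and 32.0 CPM against 47.7 and 57.4 CPM, its log2 fold change being -0.67 (SE 0.23, edgeR's adjusted p = 0.228). The groups were apart for both, and Ctbp2 passed without NrasQ61K replicate 2 (-1.14, adjusted p = 0.0203).

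Genes of endocytosis and turnover had a median of -0.23 over 14. The members with the smallest p, the ubiquitin ligase genes Neurl1a (-1.87, SE 0.80) and Dtx1 (-2.42, SE 1.04), were under 2 CPM in every library, and edgeR's adjusted p-values were 0.344 and 0.347. Dtx1 was at -1.57 without Ezh2Y646N replicate 1 and -4.29 without Ezh2Y646N replicate 2. Among the other genes listed as targets 4 of 7 were tested, with a median of -0.58. That Notch induces each of them in these cells was not tested. Hey2 was at 3.97 and 2.07 CPM against 3.03 and 4.89 CPM, which overlapped (log2 fold change -0.39, SE 0.55). Hes6, which antagonises Hes1, was at 6.15 and 6.15 CPM against 11.4 and 9.64 CPM (log2 fold change -0.77, SE 0.34, edgeR's adjusted p = 0.363). Hes2 ran from 0.138 to 7.20 CPM with the groups overlapping (-1.43, SE 1.2). Nrarp, a feedback inhibitor induced by the pathway, had values of 113 and 80.2 CPM against 72.5 and 126 CPM, which overlapped (log2 fold change -0.04, SE 0.32). Hes3 had 0 reads in every library, and Hes5 and Hes7 had at most 18.

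**Figure D4:**
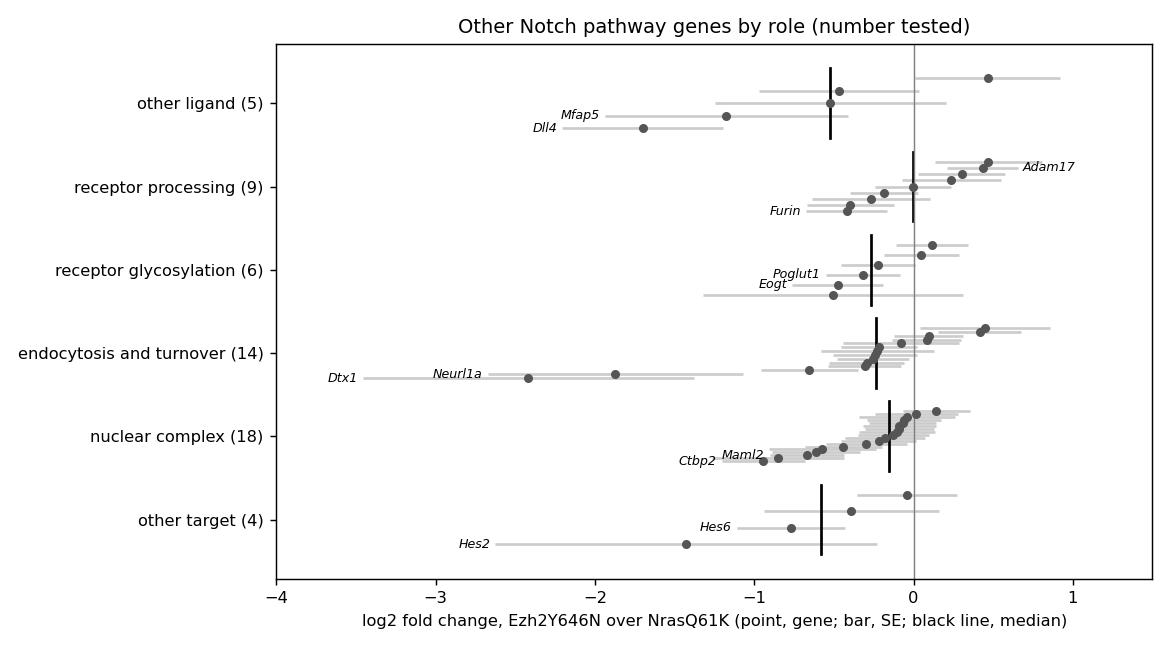
Log2 fold change (x axis, Ezh2Y646N over NrasQ61K) of the 56 tested genes of the other pathway roles, 1 point per gene with a bar of 1 SE and a black line at the median of each role. The medians run from -0.58 (other targets) to -0.0022 (receptor processing), and none of the genes passed the threshold with all 4 libraries in edgeR.

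The sorted cells held RNA of several cell types that use this pathway, and some of their markers differed between groups alongside the Notch genes. In bulk RNA, fewer cells of a type and less RNA per cell cannot be told apart. Melanocyte markers, the labelled cell type, were all detected, and their 10 genes summed to 3847 and 3939 CPM in the Ezh2Y646N libraries and 2553 and 3357 CPM in the NrasQ61K libraries, with Dct and Tyrp1 at the highest CPM. Dct alone was at 2203 and 2757 CPM against 1486 and 2002 CPM. Of the 10 genes 0 passed the threshold and all 10 were above 0, with a median log2 fold change of 0.31. The groups overlapped for 6 of the 10, and 4 were apart and higher, beside 21.1% of all tested genes. Basal keratinocyte markers, led by Krt5 and Krt14, summed to between 9896 and 23610 CPM, with the groups overlapping and 0 of 6 past the threshold.

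Spinous keratinocyte markers, led by Krt10 and Krt1, which Notch signalling is known to induce in mouse epidermis, summed to 42313 and 29792 CPM against 3430 and 8927 CPM. Their sum was higher in the libraries in which Notch1, Jag1 and Hes1 were at their lower levels. Of the 6 genes 1 rose in edgeR, where 1.1% of all tested genes rose and 0.673% fell. All 6 were apart and higher, beside 21.1% of all tested genes, with a median log2 fold change of 2.43. Granular layer markers, led by Ivl and Casp14, summed to 440 and 333 CPM against 125 and 142 CPM, and 3 of 5 rose. Inner root sheath and hair shaft markers, led by Tchh and Krt71, went the other way, at 502 and 228 CPM against 2909 and 1523 CPM, with 5 of 11 that fell and a median of -2.93. Of these, Krt34 was at 0 in both Ezh2Y646N libraries. The genes listed for the outer root sheath and companion layer, led by Krt17 and Krt79, overlapped in their sum, from 1570 to 5928 CPM. All 5 were below 0 and 2 fell. These 2 were Krt6a (65.3 and 52.9 CPM against 284 and 880 CPM) and Krt75 (23.5 and 14.4 CPM against 218 and 120 CPM). Krt16 and Krt79 overlapped between groups. The part of these keratinocyte and follicle cells in the Notch1 and Jag1 values was not tested.

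Endothelial markers, led by Plvap and Pecam1, summed to 152 and 94.4 CPM against 243 and 214 CPM, with 0 of 10 past the threshold, 10 of 10 below 0 and a median of -0.76, beside which Notch4, Hey1 and Dll4 had log2 fold changes of -0.93, -1.0 and -1.70. Ezh2Y646N replicate 2 was lowest in the endothelial sum and in Notch4, Hey1 and Dll4. It was also lowest in the sum of the hair shaft and root sheath markers, in Hes1 and in Heyl. The genes listed for pericytes and smooth muscle, led by Cspg4 and Mcam, summed to 277 and 275 CPM against 234 and 315 CPM, which overlapped. Cspg4 alone was at 174 and 190 CPM against 109 and 185 CPM, the largest part of the sum in every library. Whether the Cspg4 and Mcam RNA came from pericytes and smooth muscle or from the labelled melanocytes was not tested. Of the 8 tested, 4 were above 0 and 4 below, and 1 fell, where 0.673% of all tested genes fell. Acta2 was the gene that fell, at 8.85 and 7.04 CPM against 27.7 and 25.9 CPM. Tagln did not pass but was also apart and lower, at 8.91 and 3.94 CPM against 19.2 and 13.1 CPM. Myh11 overlapped, at 26.8 and 31.3 CPM against 24.6 and 30.0 CPM, as did Rgs5, Cspg4 and Abcc9. Mcam was apart and lower, and Kcnj8 apart and higher. Higd1b had 5 reads at most and was not tested. Fibroblast markers, led by Col1a1 and Col3a1, summed to 813 and 2028 CPM against 4041 and 2365 CPM. Of the 8 genes 2 fell, beside 0.673% of all tested genes, and the median was -1.39. NrasQ61K replicate 1 was highest in the fibroblast sum, in the sum of the hair shaft and root sheath markers, and in Heyl and Jag1. The same library was also highest in the endothelial sum and in Notch4, Hey1, Dll4, Jag2 and Dll1. The ranks of the libraries therefore do not tie any of these Notch genes to a particular cell type. Macrophage and dendritic cell markers, led by Lyz2 and Ctss, summed to 30.3 and 62.0 CPM against 88.9 and 173 CPM, with 0 of 9 past the threshold. Schwann cell markers, led by Egr2 and Mbp, summed to 1021 and 433 CPM against 262 and 428 CPM. Of the 7 genes 6 were above 0, with a median of 1.39, and 1 rose, beside 1.1% of all tested genes. The higher sum of Ezh2Y646N replicate 1 stood apart, while Ezh2Y646N replicate 2 and NrasQ61K replicate 2 were close. The part of any of these cell types in the values of Heyl, Hey1, Notch4 and Dll4 was not tested.

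**Figure D5:**
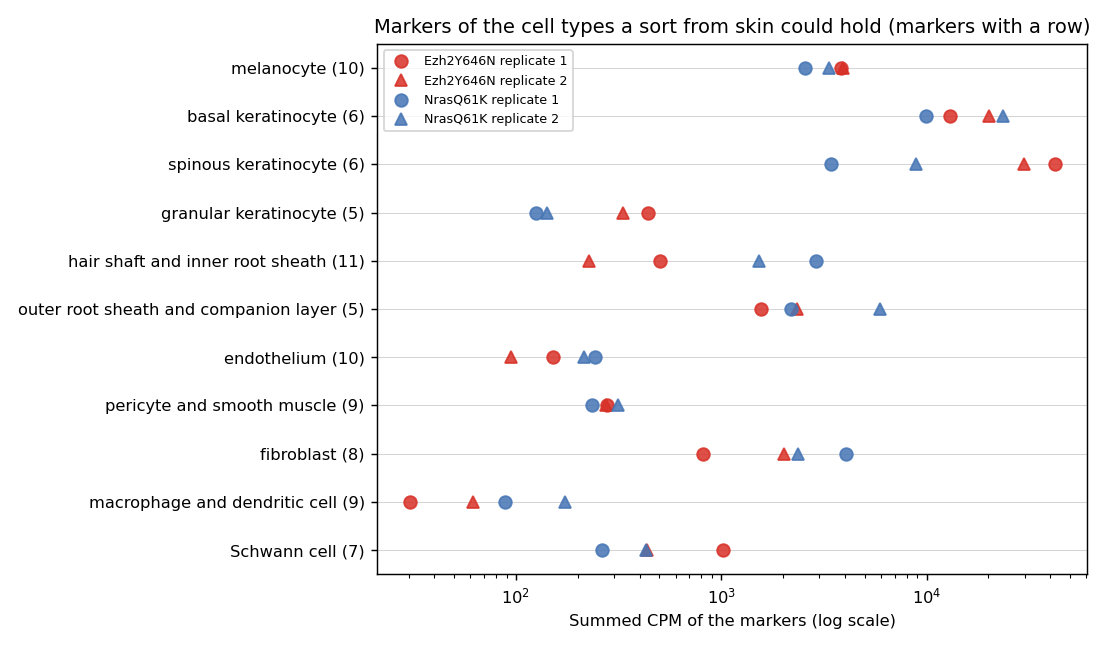
Summed CPM of each cell type's markers (x axis, log scale) in the 4 libraries, with circles for replicate 1 and triangles for replicate 2. The sums of spinous, granular, melanocyte and Schwann cell markers lie higher in both Ezh2Y646N libraries, the Schwann cell sum narrowly. Those of hair shaft, endothelial, fibroblast and macrophage markers lie lower. Those of basal keratinocyte, outer root sheath and pericyte markers overlap.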

How the data were processed

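The values the authors deposited are raw read counts per Ensembl gene, 1 file per library, with no normalization. Tools listed without roles by the submitters' processing notes are edgeR, featureCounts, STAR 2.5.4b, Trimmomatic and bcl2fastq 2.19, with GRCm38 as the build. RNA came from a micro-scale column kit, and libraries from a stranded low-input total RNA kit with removal of ribosomal RNA, per the labels' protocols. The sources used here do not give the annotation release, the strand setting or any gene filter. Total counts ranged from 14808801 to 20600297 per library.

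Symbols, positions and exon lengths were taken from GENCODE M21, which held 22291 of the 22524 identifiers. Counts were tested with edgeR 4.0.16 (R 4.3.3) on the 4 libraries: filterByExpr (minimum count 10, minimum total 15), TMM scaling, a robust quasi-likelihood fit with group as its term and 2 residual degrees of freedom, and Benjamini-Hochberg adjustment over all tested genes. The SE is the fold change divided by the square root of F. The test was checked on simulated counts. DESeq2 1.42.0, limma 3.58.1 (voom), another scaling, other filters, a fit that was not robust, the replicate number as a block and leaving out each library were the alternatives. The replicate number is not a pairing that the labels give.

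The Notch genes, the pathway list and the cell type markers were chosen with earlier results of these data known. All 10 Notch genes are named. Other pathway genes are named by the 2 smallest p-values per role or as untested, and Rbpj, Nrarp and Hey2 were added after their values were seen. Cell type lists are named by their 2 members of highest mean CPM. Krt34, Krt6a, Krt16, Krt75, Acta2, Tagln, Myh11, Rgs5, Abcc9, Kcnj8 and Higd1b were additions. Results for 1 gene of the pathway list are not reported here, and it is in none of the list's counts. Of the markers, Flg and Krt85 had no value here.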

Additional observations from a re-analysis of the deposited data

How the results depend on the processing

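The median log2 fold change of the 10 Notch genes, -0.62, ran from -0.72 to -0.59 when each library was left out in turn and kept its sign in all 12 alternatives. The number of Notch genes past the threshold was 0 with all libraries, and 2 (Heyl and Jag1, both lower) in DESeq2, with no filter on low counts and with the replicate block, where 6.35%, 6.95% and 9.37% of all tested genes were called. When each library was left out in turn it ran from 0 to 3, the 3 being Heyl, Jag1 and Notch2 without NrasQ61K replicate 2, where 7.66% were called. Of the other pathway genes, 0 passed with all libraries, 2 with no filter (Ctbp2 and Dll4), 3 with the replicate block (Ctbp2, Dll4 and Tle2), and 0 to 2 with each library left out (Ctbp2 and Tle3 without NrasQ61K replicate 2). Their median of -0.22 ran from -0.23 to -0.10, the latter without NrasQ61K replicate 2. The cause was not tested.

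Among named genes, the sign changed for Notch3 (-0.24 to 0.47) and Hes2 (-4.83 to 0.46) when libraries were left out, and so did the medians of the basal keratinocyte (-0.13 to 0.68) and pericyte (-0.13 to 0.10) lists. The same-numbered libraries' deviations from their group means correlated at 0.108 across 14265 genes, which does not establish a pairing from 2 pairs. Where a library was left out, the lone library of a group was assumed to vary like the others. The median likeness of the pairs, 0.44, was 0.48 and 0.38 with pseudocounts of 0.1 and 2. Over the alternatives, results for named genes gained a call in 14 cases and lost none, since none of these genes was called with all libraries.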

Other observations

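Within the ligands, the ratio of Jag1 to Jag2 per kilobase of merged exons was 1.55 and 1.0 in the Ezh2Y646N libraries and 2.35 and 2.01 in the NrasQ61K libraries. This was a difference of -0.80 on the log2 scale. For Heyl against Hes1 the difference was -1.72. These ratios were chosen after the values of the genes were seen. In each case the libraries of a group lay on the same side, and the 2-sided exact permutation p was 0.333, before and after adjustment over the 3 ratios computed, the smallest that 2 libraries against 2 allow.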
